A study of Mus musculus with 2 samples.

Results

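The genes of oxidative phosphorylation were examined in poly(A)-selected RNA of the embryonic mouse hindbrain. Members were the protein-coding genes whose symbols begin with Ndufa, Ndufb, Ndufc, Ndufs or Ndufv and a digit, Sdha to Sdhd, and those beginning with Uqcr, Cox4 to Cox8, Atp5 or mt-. The rule found 98 of 22028 protein-coding genes, out of 55536 genes in all: 85 nuclear genes on 19 chromosomes and the 13 protein-coding genes of mitochondrial DNA. Both libraries came from whole hindbrain of B6NCrl mice of mixed sex at embryonic day 12.5, with no genetic change or treatment named. The hindbrains of 120 embryos were combined in replicate 1, called pool 1 here, and those of 88 embryos in replicate 2, called pool 2. Each library started from 10 ng of RNA, and gene counts totalled 31469575 and 29261472. The pools are 2 biological replicates of 1 group, so there is no contrast between conditions and no test. Values are given per pool or as mean ± SD over the pools (n = 2), and the SD covers the spread between these pools alone. Levels are TPM, the deposited measure of transcript abundance per length, in the GENCODE M21 annotation of mm10. In bulk tissue, fewer cells of a type and less RNA per cell cannot be told apart.

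Oxidative phosphorylation takes electrons from NADH and succinate through complexes I to IV of the inner mitochondrial membrane to oxygen, and complex V, the ATP synthase, uses the proton gradient they build. Complex II is made wholly from nuclear genes, while the other complexes mix nuclear subunits with a few that are encoded and translated inside the mitochondrion. The mitochondrial genome is transcribed as long RNAs from both strands, which are cut, largely at the tRNAs between genes, and given short poly(A) tails. Neural progenitors and young neurons both carry these complexes, and neurons come to rely on them strongly as they mature.

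Markers of neural cells were present. All 5 neuronal markers (Tubb3, 813 and 801 TPM) and all 6 progenitor markers (Sox2, 30.6 and 28.6 TPM) were at 1 TPM or more in both pools. The share of all protein-coding genes at that level was 61.8%. Markers of the hindbrain itself were not examined. RNA of other tissues was present and differed between the pools. The summed TPM of 8 skeletal muscle markers was 42.4 in pool 1 and 208 in pool 2, and all 7 of those compared were at least 1.2-fold higher in pool 2. The summed TPM of 8 erythroid markers was 19044 in pool 1 and 15198 in pool 2. Their part in the values below was not tested.

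Of the 98 members, 94 were at 1 TPM or more in both pools, beside 61.8% of protein-coding genes. The members were mostly abundant: 72 of the 84 nuclear subunit genes were at 100 TPM or more in both pools, beside 7.14% of protein-coding genes. Among all protein-coding genes ranked by mean TPM, the first 100 held 8 mitochondrial and 3 nuclear members, and the first 500 held 12 and 41. The member levels were close between the pools, with a median SD of 6.58% of the mean. The 4 members under 1 TPM in both pools were the tissue forms Cox7b2, Cox8b and Cox8c, and a second gene named Atp5o on chromosome 16, which was listed at 0 counts in both pools beside 6423 and 5331 counts for the main Atp5o gene.

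Median levels of the nuclear subunits differed by complex. Complex II had a median of 166 TPM in pool 1 and 169 TPM in pool 2, complex I 227 and 202 TPM, complex III 299 and 261 TPM, complex IV 308 and 274 TPM, and complex V 440 and 376 TPM. The pools did not overlap between complexes II, I and III or between complexes IV and V, whereas the medians of complexes III and IV differed by less than the spread between the pools. The complex IV median includes 7 tissue forms of low level. Over members at 1 TPM or more in both pools, which drops 3 of the tissue forms, it was 465 ± 34.3 TPM. That of complex V was then 414 ± 41.5 TPM. Without any tissue form, the 11 general subunits of complex IV had medians of 527 and 503 TPM, above complex V in both pools. The order of these complexes therefore depends on the tissue forms. The corresponding medians of the mitochondrial genes were 426 ± 27.0 TPM for the 7 of complex I, 1109 ± 286 TPM for the 3 of complex IV and 4800 ± 307 TPM for the 2 of complex V, and the single gene of complex III, mt-Cytb, was at 1801 ± 119 TPM.

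**Figure D1:**
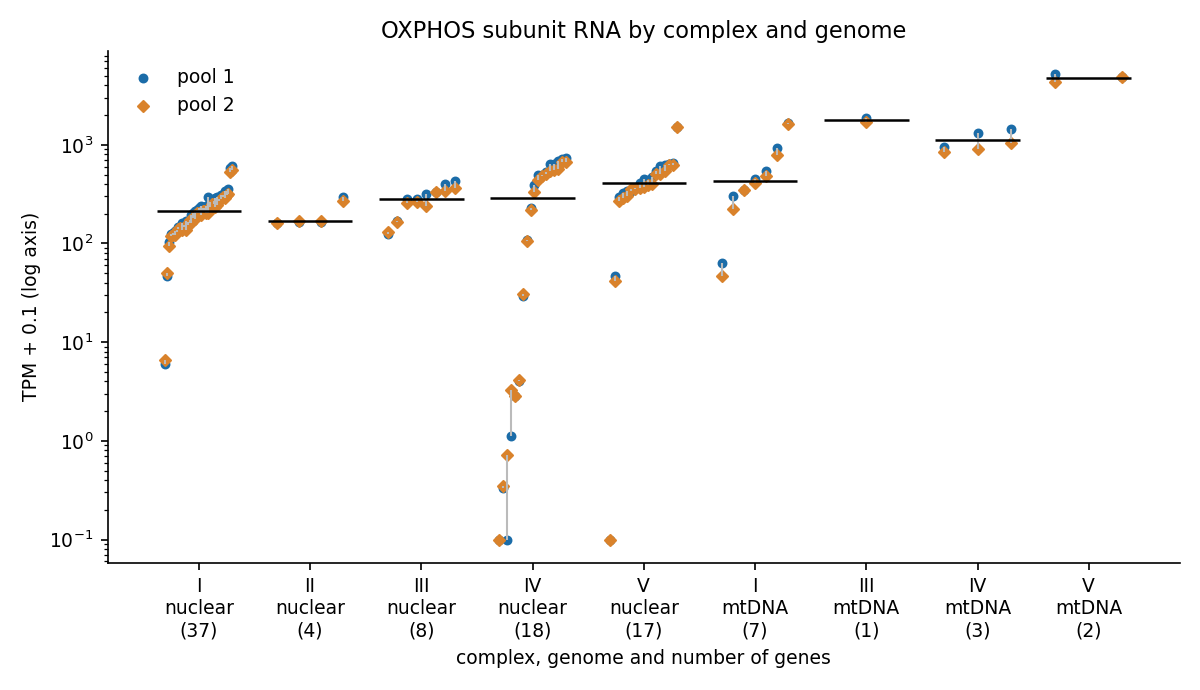
Level of each subunit gene in both pools by complex and genome, as TPM + 0.1 on a log axis; circles are pool 1, diamonds pool 2, grey lines join the pools of a gene, black bars are group medians (mean of the pools), and numbers in brackets count genes. The mitochondrial genes of complexes III, IV and V lie above the medians of the nuclear subunits, and the low points of nuclear complex IV are its tissue forms.

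Complex I, the NADH dehydrogenase and the largest of the complexes, had 37 nuclear subunit genes, all at 1 TPM or more. Its 7 nuclear core subunits, which carry the flavin and the iron-sulfur clusters, had medians of 160.5 and 139 TPM, and its 29 accessory subunits 242 and 212 TPM. The highest were Ndufa4 (612 and 551 TPM), a small subunit first assigned to complex I and since found with complex IV, then Ndufc1 (583 and 531 TPM) and Ndufa1 (355 and 314 TPM). Ndufv2, one of the core subunits, was at 218 and 203 TPM, and Ndufs1, the largest iron-sulfur subunit, was the lowest of the core at 103 and 95.3 TPM. The lowest of complex I were Ndufb4 (47.2 and 50.5 TPM) and Ndufa4l2 (5.96 and 6.45 TPM), a relative of Ndufa4 known to be induced by hypoxia.

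Complex II, succinate dehydrogenase, also a Krebs cycle enzyme, showed a narrow range. Sdhb, the iron-sulfur subunit, was at 296 and 268 TPM. The flavoprotein Sdha was at 165 and 170 TPM, and the membrane anchors Sdhc and Sdhd were at 166 and 167 TPM and at 161 and 159 TPM. The levels of these 3 genes lay close together, and Sdhb was above each of them in both pools.

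In complex III, the cytochrome bc1 complex, 3 of the 5 small accessory subunits were above each nuclear core protein in both pools. Uqcrq was at 428 and 369 TPM, Uqcr10 at 401 and 341 TPM, and Uqcrb at 335 and 332 TPM. The core proteins Uqcrc1 and Uqcrc2 were at 284 and 266 TPM and at 126 and 131 TPM, and the Rieske iron-sulfur protein Uqcrfs1 at 167 and 166 TPM. The accessory subunit Uqcrh (279 and 255 TPM) was below Uqcrc1 in both pools, and Uqcr11 (315 and 239 TPM) in pool 2. The mitochondrial core subunit of the same complex, mt-Cytb, was at 1885 and 1717 TPM. Cyc1, the cytochrome c1 subunit, whose symbol is outside the rule, was at 251 and 250 TPM.

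Complex IV, cytochrome c oxidase, had 11 general nuclear subunits with a median of 515 ± 17.1 TPM. Cox6c was at 740 and 669 TPM, Cox4i1 at 713 and 672 TPM and Cox6b1 at 681 and 566 TPM. The lowest general genes were Cox7b at 227 and 219 TPM and Cox7a2l, also called SCAF1, a factor that joins complexes III and IV into supercomplexes, at 108 and 107 TPM.

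Complex V held the highest nuclear member. Atp5b, the catalytic beta subunit of the F1 head, was at 1508 and 1512 TPM and ranked 31 among all protein-coding genes. The alpha subunit Atp5a1 was at 639 and 622 TPM and the gamma subunit Atp5c1, the central stalk, at 362 and 359 TPM, so that Atp5b was 4.16-fold and 4.22-fold above Atp5c1 and Atp5a1 was 1.76-fold and 1.73-fold above it. In the enzyme alpha and beta are present in several copies for each gamma, but equal to each other, whereas the Atp5b RNA was 2.36-fold and 2.43-fold above that of Atp5a1. Among the peripheral stalk genes Atp5h (subunit d) was at 647 and 622 TPM. The ring that turns in the membrane is built from c subunits whose mature protein is encoded by 3 genes: Atp5g3 was at 610 and 501 TPM, Atp5g1 at 328 and 290 TPM, and Atp5g2 at 46.8 and 41.4 TPM. Their order was the same in both pools, but the value of Atp5g2 rests on how reads were divided with a pseudogene, as described below. Atp5s, a factor that is not a subunit of the enzyme, was at 20.2 and 21.9 TPM.

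Several subunits of complex IV exist in a general form and a form that is known from muscle, lung or testis. These 7 forms and Ndufa4l2 made 8 pairs, and each of the 8 was below its general form in both pools. Cox6b2, known from testis, was the highest at 29.1 and 30.6 TPM, which was 4.10% and 5.13% of the sum of Cox6b2 and Cox6b1; testis germ cell markers were near 0, with Tnp1 at 0 counts in both pools. Cox4i2, the lung and oxygen-regulated form, was at 3.91 and 4.06 TPM, 0.545% and 0.601% of its pair. Cox7a1, a heart and muscle form, was at 2.72 and 2.77 TPM from 16 and 15 counts. Cox7b2 was at 0.230 and 0.250 TPM from 2 counts in each pool. Cox8c, a testis form, had no count in either pool, which allows up to 0.418 and 0.454 TPM (3 counts).

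Of the muscle forms, Cox6a2 was higher in pool 2, while Cox7a1 was level. Cox6a2, the heart and skeletal muscle form of subunit 6a, had 1.03 TPM (12 counts, 95% Poisson interval 6.20 to 20.96) in pool 1 and 3.18 TPM (34 counts, 23.5 to 47.5) in pool 2, intervals that do not overlap and cover counting error only. Cox8b had 0 counts in pool 1, which allows up to 0.575 TPM, and 3 counts (0.620 TPM) in pool 2, counts too few to tell the pools apart. The skeletal muscle markers were also higher in pool 2: Myog was at 6.06 and 28.2 TPM and Acta1 at 7.58 and 36.4 TPM, while Ckm, the adult muscle creatine kinase, was at 0.260 and 0.180 TPM. Of 4 heart muscle markers, Tnnt2, which embryonic skeletal muscle also expresses, was 3.54-fold higher in pool 2, and Myl7 and Nppa were at 0.880 to 1.47 TPM. The part of muscle RNA in the Cox6a2 values was not tested. On the log2(TPM + 0.1) scale the median over the 8 pairs was a difference of -7.84, and the pairs ranged from -4.37 for Cox6b2 to -12.53 for Cox8c, the latter set by the pseudocount.

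**Figure D2:**
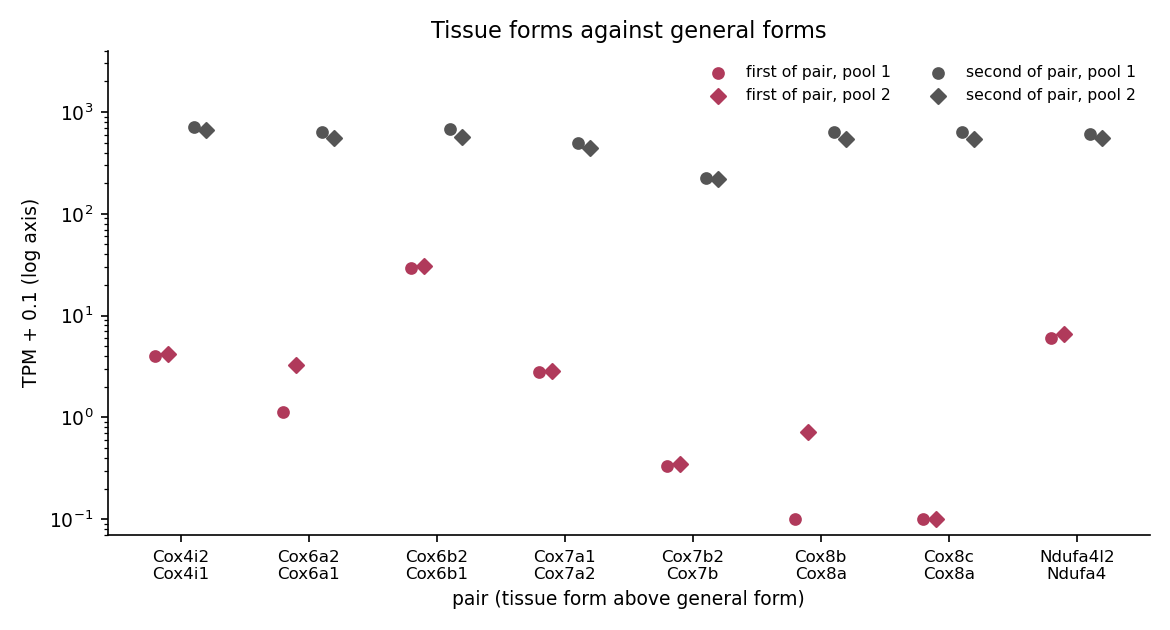
Levels of the tissue form (red) and the general form (grey) of each pair, as TPM + 0.1 on a log axis; circles are pool 1 and diamonds pool 2. The general forms lie between 219 and 713 TPM, and every tissue form is at 30.6 TPM or less, with Cox6a2 at 1.03 and 3.18 TPM.

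The median mitochondrial gene was at 960 and 836 TPM in pools 1 and 2, and the median nuclear subunit at 274 and 238 TPM. On the log2(TPM + 0.1) scale the mitochondrial median was higher by 1.81 ± 0.003, a 3.50-fold difference in pool 1 and a 3.52-fold difference in pool 2. The 13 genes of mitochondrial DNA took 0.826% of gene counts in pool 1 and 0.699% in pool 2, beside 1.102% and 1.02% for the nuclear subunits together. Both comparisons depend on 7 genes of chromosome 1 that resemble mitochondrial genes. With their counts added to the mitochondrial genes the log2 difference was 2.67 and the mitochondrial median 1627 TPM. The mean share of counts was then 1.11 ± 0.14%, beside a nuclear mean of 1.06 ± 0.06%. The copies held 0.387% of gene counts in pool 1 and 0.315% in pool 2. With them added, the mitochondrial share was above the nuclear share in pool 1 but still below it in pool 2.

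The individual mitochondrial mRNAs were unequal. Mt-Atp8, a small subunit of the ATP synthase, was at 4821 and 4830.5 TPM, and mt-Atp6, the proton channel subunit, at 5214 and 4335 TPM, the fifth and the sixth place by mean TPM among all protein-coding genes. The levels of complex I genes were mt-Nd1 1671 and 1607 TPM, mt-Nd4 925 and 796 TPM, mt-Nd2 541 and 479 TPM, mt-Nd5 345 and 351 TPM, mt-Nd3 300.04 and 223 TPM, and mt-Nd4l 63.2 and 47.0 TPM. Mt-Nd1, next to the ribosomal RNA genes, was 4.85-fold and 4.58-fold above mt-Nd5. The catalytic core of complex IV gave mt-Co1 at 1444 and 1035 TPM, mt-Co2 at 1311 and 906 TPM, and mt-Co3 at 960 and 836 TPM. Mt-Nd6, the single member on the other strand, was at 445 and 407 TPM. The sources used here do not say whether strand was kept, so its reads cannot be told apart from RNA antisense to it, and it shares 14 bases with mt-Nd5 on the opposite strand. The mitochondrial ribosomal RNAs, which are not members, were also listed after poly(A) selection. Levels were 3078 and 2606 TPM for mt-Rnr2 and 863 and 543 TPM for mt-Rnr1.

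Some neighbouring mitochondrial genes share bases, which is shown because a read over the shared part belongs to both. Mt-Atp8 and mt-Atp6 overlap by 43 bases at chrM:7927-7969 and mt-Nd4l and mt-Nd4 by 7 bases at chrM:10167-10173, each pair lying on 1 RNA in different reading frames. Below, on the plus strand of mm10, capitals mark the overlap, from the start codon of the downstream gene to the stop codon of the upstream gene, with 12 bases on each side.
mt-Atp8 and mt-Atp6, chrM:7915-7981: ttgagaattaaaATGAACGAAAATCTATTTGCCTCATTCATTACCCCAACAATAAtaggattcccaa
mt-Nd4l and mt-Nd4, chrM:10155-10185: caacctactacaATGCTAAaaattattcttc
The listed level of mt-Atp6 was near that of mt-Atp8, at 1.08-fold in pool 1 and 0.898-fold in pool 2. That of mt-Nd4 was 14.6-fold and 17.0-fold above mt-Nd4l, a gap that depends on the division of reads described next.

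The levels of 7 mitochondrial genes rest on how reads were divided with chromosome 1. Between chr1:24611535-24616197 on the minus strand, the annotation has 7 unprocessed pseudogenes, copies of mitochondrial DNA inserted in the nuclear genome, which follow the order of mt-Co1, mt-Co2, mt-Atp6, mt-Co3, mt-Nd3, mt-Nd4l and mt-Nd4. Over the aligned bases, 5 of the 7 copies had no difference from the mitochondrial gene, among them all 783 bases of the mt-Co3 copy. The mt-Nd3 copy had 1 difference in 345 bases, T3C, counted from the first base of mt-Nd3, with the mitochondrial base first. The start of this pair is shown because no other aligned base differs; capitals mark the difference.
mt-Nd3, chrM:9459-9519, plus strand: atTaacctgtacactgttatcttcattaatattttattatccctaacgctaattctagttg
Gm28438, chr1:24613059-24613119, minus strand: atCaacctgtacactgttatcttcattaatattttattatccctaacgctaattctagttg
The deposited tables use an effective length of the length minus 99 bases, so the share of windows of 100 bases found in another annotated transcript was counted. It was 99.9% for mt-Co3, 99.5% for mt-Co2 and mt-Atp6, 98.5% for mt-Nd4l, 97.6% for mt-Nd3, 60.8% for mt-Nd4 and 30.8% for mt-Co1. For mt-Nd1, mt-Nd5, mt-Nd6, mt-Cytb and mt-Atp8 it was 0. A copy that is not annotated would not be found in this way. Mt-Atp8 lies between mt-Co2 and mt-Atp6, and the chromosome 1 bases between the copies of those genes were not searched.

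The deposited division of counts differed widely between these genes. Of the counts of gene and copy together, mt-Atp6 held 84.5% and 80.3%, mt-Co1 68.8% and 65.4%, mt-Co2 46.2% and 38.9%, mt-Nd3 23.8% and 20.9%, mt-Co3 16.2% and 18.7%, and mt-Nd4l 15.7% and 13.7%. Mt-Nd4 held 100% in both pools, and its copy had no counts. In 4 of the 7 pairs the copy had more counts than the mitochondrial gene in both pools. For mt-Co3 the copy Gm28437 had 67730 and 45738 counts against 13134 and 10539 for the gene. With the copy's counts added and the gene's own length, mt-Co3 would stand at 5910 and 4462 TPM, beside 6169 and 5402 TPM for mt-Atp6 and 4821 and 4830.5 TPM for mt-Atp8, and mt-Nd4l at 403 and 342 TPM, nearer to mt-Nd4 at 925 and 796 TPM. The summed levels of mt-Co3 and mt-Atp6 lay nearer to each other than the listed levels in both pools. Whether a read of the shared sequence came from mitochondrial DNA or from chromosome 1 cannot be told apart.

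For 2 of these genes the listed level lay well outside the deposited interval. The listed mt-Atp6 level of 5214 TPM in pool 1 was above its own deposited interval of 3332 to 4439 TPM, and the listed mt-Co3 level of 960 TPM was below its interval of 2000.1 to 2721 TPM. A TPM more than 1.1-fold outside its interval in both pools was found for these 2 members, beside 0.153% of genes with 50 or more mean counts. Smaller departures also occurred without shared windows. In pool 1, mt-Nd1 was at 1671 TPM above an interval of 1596 to 1633 TPM, and mt-Cytb at 1885 TPM above 1803 to 1839 TPM. What level these intervals cover is not stated in the deposited files.

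**Figure D3:**
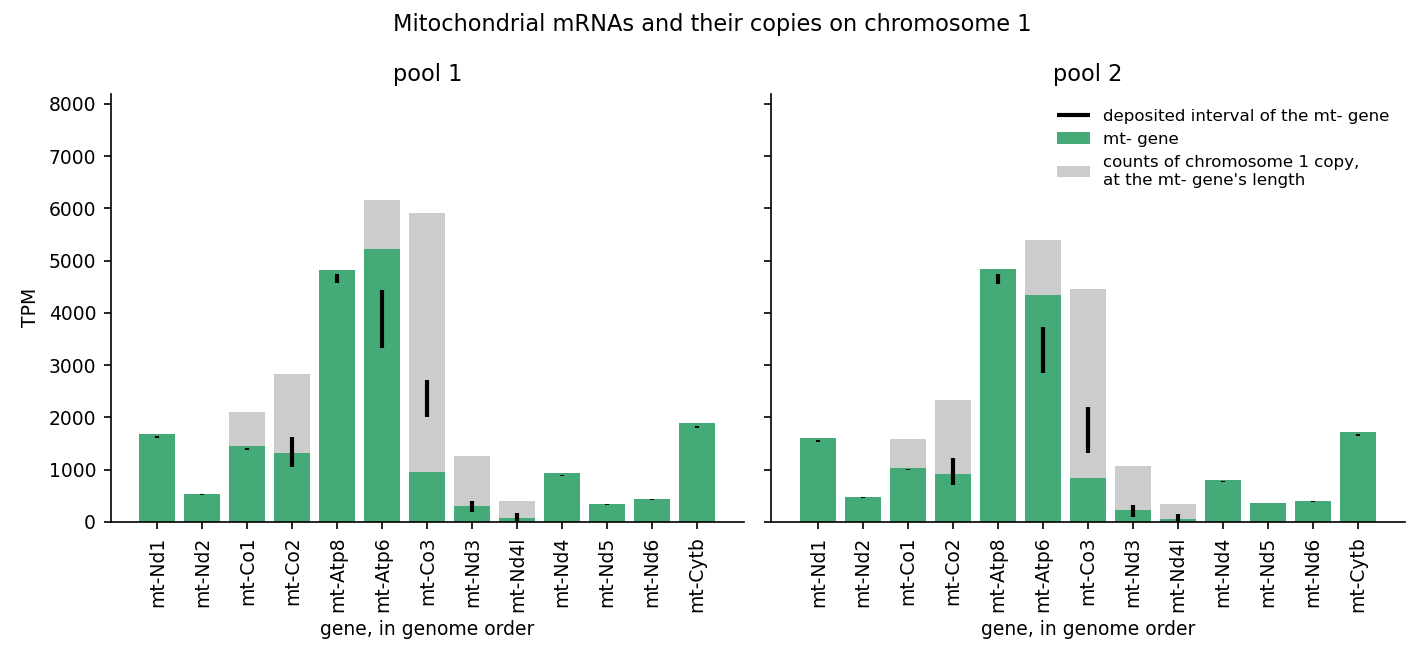
TPM of the 13 mitochondrial genes in genome order in each pool (green bars), the counts of the chromosome 1 copy converted at the length of the mitochondrial gene and stacked on top (grey), and the deposited interval of the mitochondrial gene (black lines). The grey part is largest at mt-Co3, and the black lines of mt-Atp6 and mt-Co3 lie away from the top of the green bar.

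Near copies also touched some nuclear members. Atp5g2 shared 86.4% of windows, mainly with the processed pseudogene Gm10175, which had 3410 and 2706 counts against 585 and 478 for Atp5g2. Ndufb4, the lowest general subunit of complex I, had 432 and 413 counts beside 1403 and 1270 for the processed pseudogene Ndufb4c. Atp5l, subunit g of the ATP synthase, shared 69.0% of windows, and Atp5g1 shared 57.3%. The low levels of Atp5g2 and Ndufb4 therefore stand beside high counts of a copy, and whether these counts are RNA of the copy was not tested.

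The same reads were deposited under 2 annotations, M21 and the older M4, which gives a second value for 97 of the 98 members. A 1.5-fold or greater difference of mean TPM was found for 5 of 94 members, beside 7.13% of genes. Ndufa11, an accessory subunit at the membrane arm of complex I, was at 272 ± 33.9 TPM under M21 and 50.9 ± 6.25 TPM under M4, from nearly the same reads (2644 and 2687 counts in pool 1), because its mean length was 546 bases under M21 and 2661 bases under M4. Ndufs4, an accessory subunit known as a gene of Leigh syndrome, was at 221 ± 10.9 and 93.5 ± 3.40 TPM, with lengths of 684 and 1534 bases. Atp5l was at 412 ± 51.2 TPM under M21 and 113 ± 9.95 TPM under M4, and here the counts moved: it held 84.0% of the counts shared with its pseudogene Gm10221 under M21 and 19.7% under M4 in pool 1. Atp5g2 went the other way, from 44.1 ± 3.83 to 126 ± 13.4 TPM, as its share with Gm10175 was 14.7% under M21 and 40.5% under M4. Atp5s was at 21.1 ± 1.19 and 11.9 ± 0.148 TPM. None of the 13 mitochondrial genes passed 1.5-fold.

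**Figure D4:**
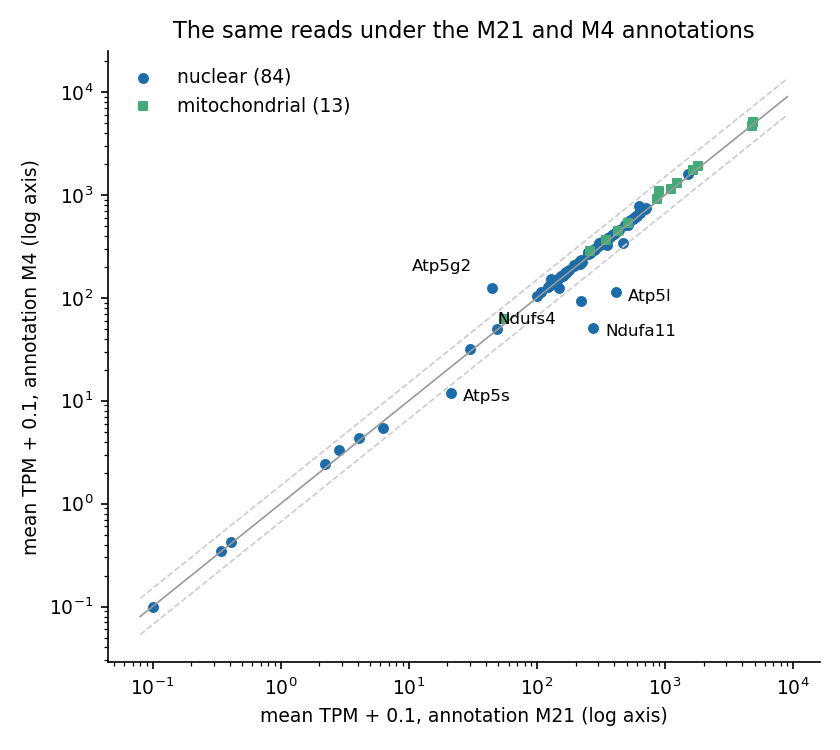
Mean TPM + 0.1 of 97 members under M21 (horizontal) and M4 (vertical), both log axes; blue circles are nuclear and green squares mitochondrial genes, the solid line marks equality and the dashed lines 1.5-fold. The 5 labelled genes lie outside the dashed lines, with Atp5g2 above and the other 4 below.

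A single transcript led most of the nuclear members. Of 72 members with more than 1 annotated transcript, 12 had a leading transcript of under 60% in both pools or a different leader in each, beside 38.6% of protein-coding genes. In some of these the leading transcript was not annotated as coding. For Atp5j, a peripheral stalk subunit (F6), a retained-intron transcript held 55.6% and 56.4% and the coding transcript 30.7% and 29.5%. Cox5b was led by a processed transcript of 362 bases at 59.1% and 59.9%, and Atp5f1, subunit b of the stalk, by a transcript marked for nonsense-mediated decay at 56.0% and 53.7%. In Ndufs4 the leader changed between pools, with 34.6% and 28.9% for one transcript marked for nonsense-mediated decay and 27.4% and 35.3% for another. Ndufc1 and Cox7b were led by a coding transcript at 49.6% and 48.6% and at 46.1% and 49.0%. These shares divide reads among overlapping short transcripts and are estimates.

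The members were slightly lower in pool 2, as ratios of counts scaled by TMM, a method that sets the bulk of genes equal between libraries. Of 91 members with 50 or more mean counts, 83 were lower in pool 2, beside 49.4% of genes. The differences were small: 13 of the 91 were lower by 1.2-fold or more, beside 8.09% of genes, and none was higher by 1.2-fold, beside 8.05% of genes. The median log2 ratio was -0.14 for the nuclear subunits and -0.21 for the mitochondrial genes. The lowest nuclear ratios were those of Ndufa3 (293 and 205 TPM, log2 ratio -0.49), a small membrane subunit of complex I, and Uqcr11 (315 and 239 TPM, -0.41), the smallest subunit of complex III. The 8 members that were not lower were Ndufa4l2 (log2 ratio 0.16), Atp5s (0.05), Sdhc (0.05), Ndufb4 (0.04), Cox6b2 (0.03), Uqcrc2 (0.03), mt-Nd5 (0.02) and Cox7c (0.01). Scaling by the spiked-in RNAs moved the median of all genes by -0.37, under which all 91 were lower. Relative to that median the members stood at -0.14 under both scalings. This had to be so, because a change of scaling moves the ratios of all genes by nearly the same amount.

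The nuclear ratios varied with transcript length, but in each length range a larger share of nuclear members than of other genes was lower in pool 2. Protein-coding genes that are not members were also lower in pool 2 where short: their median log2 ratio was -0.19 under 500 bases (60 genes), -0.14 from 500 to 700 bases (218 genes), -0.07 from 700 to 1000 bases (627 genes) and -0.01 from 1000 to 2000 bases (3532 genes). Nuclear members in these ranges had medians of -0.20, -0.16, -0.10 and -0.02. Lower in pool 2 were 10 of 10, 30 of 33, 14 of 15 and 14 of 17 of them. Of the other genes in these ranges 81.7%, 80.7%, 70% and 54.4% were lower. Less the median of these other protein-coding genes in the same range, the nuclear subunits stood at -0.018 and the mitochondrial genes at -0.14. The comparisons by length range were chosen after the data were seen. Across the 78 nuclear members the ratio and log2 length had a Pearson correlation of 0.51 (Spearman 0.53), and across 13383 other protein-coding genes 0.11 (Spearman 0.18). These are descriptions across genes of the same 2 libraries. From 2000 to 4000 bases the other coding genes had a median of 0.018, with 44% lower in pool 2. The 3 nuclear members there, Ndufs1, Sdha and Atp5a1, were lower in pool 2 at -0.075, -0.042 and -0.024.

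**Figure D5:**
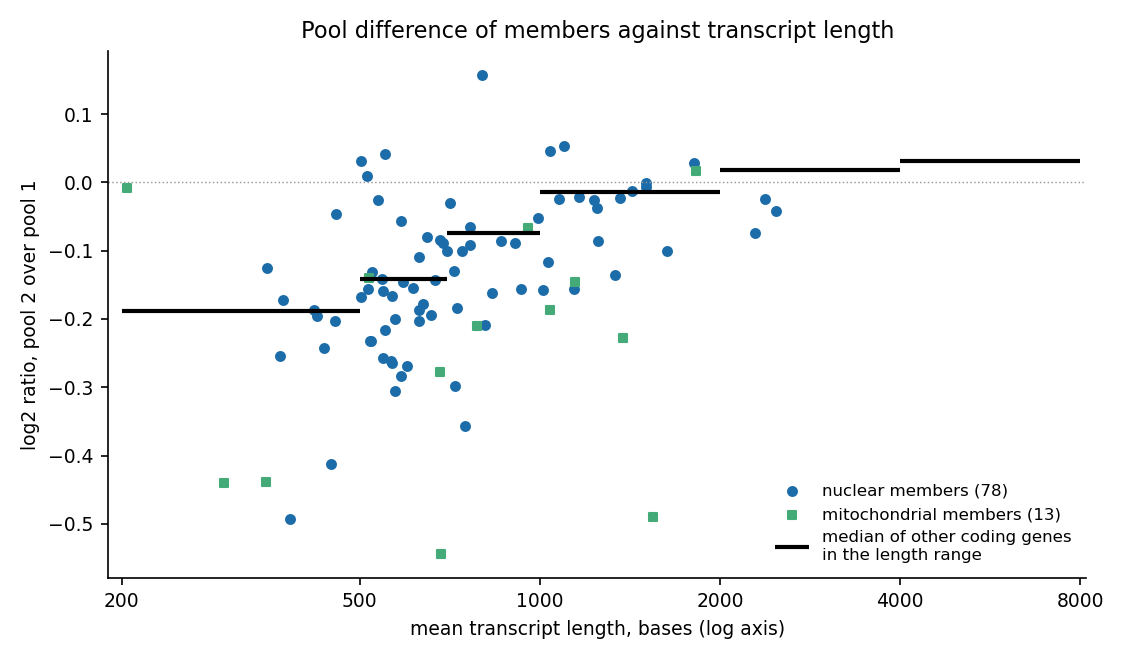
Log2 ratio of pool 2 over pool 1 against mean transcript length (log axis) for 78 nuclear (blue circles) and 13 mitochondrial (green squares) members with 50 or more mean counts; black bars are medians of the other protein-coding genes in each length range. Nuclear members lie about the black bars, and mt-Co1 and mt-Co2 lie furthest below them.

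Of the 13 mitochondrial genes 12 were lower in pool 2 and 5 by 1.2-fold or more. These 5 were mt-Co2 (log2 ratio -0.54), mt-Co1 (-0.49), mt-Nd4l (-0.44), mt-Nd3 (-0.44) and mt-Atp6 (-0.28), and each has a copy on chromosome 1. With the copy's counts added the ratios were -0.29, -0.42, -0.25, -0.25 and -0.20, and mt-Co3 moved from -0.21 to -0.42. The members with no window shared with another annotated transcript were closer to 0. Their ratios were -0.01 for mt-Atp8, 0.02 for mt-Nd5, -0.07 for mt-Nd1, -0.14 for mt-Nd6 and -0.15 for mt-Cytb. The ribosomal RNAs mt-Rnr1 and mt-Rnr2, which are not members, were lower at -0.68 and -0.25. Their shared windows were not counted. Erythroid markers moved in the same direction, 5 of 8 being lower by 1.2-fold or more, as Hbb-y did at 8139 and 6357 TPM, and their part in the member ratios was not tested.

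The machinery that builds and regulates the complexes was less abundant than the subunits. Assembly factors, which join subunits and cofactors but leave the finished enzyme, had median levels of 34.6 TPM for complex I (16 genes), 31.7 TPM for complex II (4), 37.9 TPM for complex III (6), 40.3 TPM for complex IV (18) and 40.7 TPM for complex V (4), beside 274 and 238 TPM for the nuclear subunits in the pools. The highest for complex III was Uqcc2 (242 and 202 TPM), followed by Uqcc1 and Uqcc3, and the lowest Lyrm7 (4.26 and 8.26 TPM). For complex IV, Coa3 was at 162 and 149.68 TPM, Cox14 at 121 and 116 TPM and Cox20 at 112 and 117 TPM, and the lowest was Pet117 (1.81 and 0.870 TPM). Complex I assembly was led by Dmac1 (81.5 and 86.0 TPM), Acad9 and Ndufaf2, with Nubpl, which delivers iron-sulfur clusters, lowest at 8.46 and 8.34 TPM. For complex II, Sdhaf4, Sdhaf2 and Sdhaf1 were above Sdhaf3, and for complex V, Fmc1, Tmem70 and Atpaf1 were above Atpaf2, by mean TPM. Among 15 genes of mitochondrial transcription and RNA, all at 1 TPM or more, Slirp was at 208 and 185 TPM, Mterf3 at 62.9 and 68.4 TPM, and Tfb1m lowest at 12.45 and 12.05 TPM. Slirp's partner Lrpprc, which stabilises mitochondrial mRNAs, was at 40.5 and 39.9 TPM, and Tfam, which packages mitochondrial DNA, at 54.7 and 64.8 TPM. Of 8 nuclear regulators, Nrf1 was at 50.6 and 47.7 TPM, Gabpb1 at 50.6 and 54.6 TPM, Gabpa at 28.6 and 29.3 TPM, Ppargc1a, a coactivator of mitochondrial genes in muscle and brown fat, at 3.45 and 4.47 TPM, and Ppargc1b was the lowest at 1.45 and 1.69 TPM. Beside 49.4% of genes, 7 of 16 assembly factors of complex I were lower in pool 2, 3 of 4 of complex II, 4 of 6 of complex III, 8 of 17 of complex IV and 1 of 4 of complex V. Their median log2 ratios were 0.04, -0.11, -0.04, 0.0065 and 0.04. The 3 compared genes of carriers and subunits outside the symbol rule were lower (median -0.06). Of mitochondrial transcription 9 of 15 genes were lower and of nuclear regulators 3 of 8. The median log2 ratios of these 2 lists were -0.01 and 0.05. Median transcript lengths of the assembly factors were 1434, 2056, 1607, 904 and 1372 bases for complexes I to V, against 642 for the subunits. They were 2220 bases for mitochondrial transcription genes and 3600 for nuclear regulators. Among the assembly factors the lowest median ratio was that of complex II, the list with the longest transcripts. Other mitochondrial proteins outside the respiratory chain were at a median of 156.5 TPM, with Hspd1, a chaperone, highest at 236 and 249 TPM, then the channels Vdac2 and Vdac1, and Tomm40 lowest at 106.5 and 104 TPM. The carrier cytochrome c, Cycs, was at 50.4 and 45.8 TPM, its testis form Cyct at 0 and 0.390 TPM, and the acyl carrier subunit Ndufab1 of complex I at 431 and 392 TPM.

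Nuclear regulators of these genes are known to bind short motifs near the start of transcription, so the promoters of RefSeq (build GRCm38.p6, 250 bases before to 50 after the start) were searched. A window was found for 67 of the 85 nuclear members, 1 of them under a newer symbol. The motif of NRF1, GCGCATGCG, on either strand was in 8 of 63 members that are not tissue forms (12.7%), beside 1.81% of all 27025 genes with a window and 5.33% of protein-coding genes at 100 TPM or more. The ETS motif CCGGAAG, bound by GABP, was in 15 (23.8%), beside 9.12% of all genes and 23.1% of the abundant ones. The YY1 motif AAGATGGC was in 9 (14.3%), beside 2.88% and 5.97%. Any of the 3 was in 28 of the 63 (44.4%), beside 13% of all genes and 31.2% of the abundant ones, and in none of the 4 tissue forms with a window. Extended by 1 base to GCGCATGCGC, the NRF1 motif reads alike on both strands and so matches once on each. A match is a description of the letters in this window. The NRF1 matches of 2 subunits are printed, since they show the form of the match; capitals mark these 10 bases, and positions are on GRCm38.p6.
Cox6a1, chr5:115349097-115349136, minus strand: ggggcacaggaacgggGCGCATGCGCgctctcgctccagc
Atp5k, chr5:108434426-108434465, minus strand: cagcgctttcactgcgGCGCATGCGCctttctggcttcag
These motifs begin 162 and 50 bases before the RefSeq start in Cox6a1 (637 and 559 TPM) and Atp5k (338 and 302 TPM). Atp5b, the highest nuclear member, had none of the 3 motifs in its window.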

How the data were processed

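RNA from 2 pools of hindbrain was primed with oligo-dT and cut by Nextera tagmentation, per the labels' protocols, with ERCC spike-ins and a SMARTer ultra low input manual. Per the deposited read-me files, values are on mm10 with GENCODE M21 (used here) and M4; quantifier, settings and strand: not given in the sources used here. Expected counts, as deposited, are estimates and need not be whole. The deposited TPM was scaled by the authors over all 55536 genes, 97 spike-ins and 26248 tRNA entries; posterior mean TPM and the intervals and standard deviations are other columns of the authors. Short or near-identical transcripts are the least certain under such estimates, and counts without molecular identifiers are not independent molecules, so intervals and the limits set by 0 counts describe counting error alone.

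Members and lists were chosen with earlier results of these data known. All 55536 gene identifiers matched a symbol in M21. Levels are deposited TPM (pseudocount 0.1 on the log2 scale). Ratios between pools used rounded expected counts, TMM factors of edgeR 4.0.16, a prior count of 0.5 and 50 or more mean counts; DESeq2 1.42.0 size factors were an alternative. No p-value was computed. Shared windows were exact matches of 100 bases on either strand between the leading M21 transcript and other annotated transcripts. Scripts ran in R 4.3.3 and Python 3.11.15, with matplotlib 3.10.9, scipy 1.17.1, numpy 2.4.6 and pandas 2.3.3, and were tested on simulated data. Named are all mitochondrial genes, the 3 highest and 2 lowest nuclear members of a complex, isoform pairs, c subunits and members under 1 TPM. Also named are the 5 largest ratios between pools in each direction and between annotations, and up to 6 members by transcript share. Of the lists of related mitochondrial genes the 3 highest and the lowest are named. Cell type markers were not named by rank, and not every marker list has a named gene. Others, such as Lrpprc and Ppargc1a, were named after their values were seen.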

Additional observations from a re-analysis of the deposited data

How the results depend on the processing

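Of 115 values recomputed under alternatives, 25 of the main results and 9 of single isoform pairs moved past a limit. The limit was the spread between pools for levels, shares and isoform pairs, and 1.5 times for counts. For the pool ratios, which have no spread, it was a fixed change in log2 ratio. Rescaling TPM to the total of nuclear protein-coding genes gave medians of 271 TPM for nuclear complex I, 211 for II, 354 for III, 368 for IV, 515 for V and 1134.5 for the mitochondrial genome, a change of scale that leaves their order as it is. The complex IV median was 465 TPM over members at 1 TPM or more and 412 TPM over those with an effective length of 300 or more, beside 414 and 408 TPM for complex V, and the complex II median was 174 TPM under M4. The mitochondrial median was 1044 TPM under M4, 1003 TPM with an effective length of 300 or more, 1147 TPM with the posterior mean and 1627 TPM with chromosome 1 copies added. The mitochondrial minus nuclear log2 difference of 1.81 was 1.98 under M4, 1.81 with a pseudocount of 1, 1.76 over members at 1 TPM or more, 1.97 with an effective length of 300 or more, 2.09 from log2 CPM, 2.19 with the posterior mean and 2.67 with copies added. The share of mitochondrial counts was 1.11% with copies added. The pool ratios were -0.59 (mitochondrial) and -0.51 (nuclear) by spike-in totals. The nuclear ratio was -0.018 after subtracting the median of other protein-coding genes of like length. A limit of 50% in place of 60% left 7 members in place of 12 by transcript share. The alternatives with posterior means, copies and length ranges were chosen after seeing the data. Leaving out each pool in turn could not move a level or share past its limit, because each pool lies within the SD of the pools' mean by construction. The isoform medians were then -8.31 and -7.37. Counts could have moved but stayed within 1.5 times, with 12 and 13 members by transcript share. No paired analysis was possible because there is only 1 group. Depth limits the tissue forms with few counts.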
